A study of Mus musculus with 14 samples.

Results

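Integrin subunits, the chains of the main adhesion receptors of leukocytes, are described here for 10 of the 43432 genes in the deposited table: Itgax, Itgam, Itgal, Itgb2, Itga4, Itga6, Itgav, Itgb1, Itgb5 and Itgb7. They were chosen by gene symbol, and each symbol matched 1 row. All 10 reached the minimum for testing. The table holds 27 integrin subunit genes in all, and the other 17 are given below as a comparison. The 14 RNA-seq libraries came from sorted lung cells of 129S1 males, 10 to 12 weeks old. The animals were given bleomycin, a DNA-damaging drug that injures the lung and leaves fibrosis, or water, into the trachea. The labelled dose is 3 U/k. Cells were stained for SiglecF, a sialic acid-binding lectin, for CD11c and for MHC class II (MHCII), and those positive for SiglecF and CD11c were sorted as MHCII-high or MHCII-low.

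The groups were MHCII-high and MHCII-low cells taken 2 weeks and 4 weeks after bleomycin, each with 3 libraries. Water-treated controls gave 2 libraries, both MHCII-low. No MHCII-high control was analysed here, so the effect of bleomycin could be measured for MHCII-low cells alone. The gate is a limit of every comparison: CD11c, the product of Itgax, was a sort marker, so all cells were chosen to carry it. The labels do not say whether replicate libraries came from separate mice, so p-values measure the spread between these libraries, which may be partly technical.

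Integrins are receptors made of 1 alpha and 1 beta chain that bind cells to other cells and to extracellular matrix. On leukocytes, the beta2 chain (Itgb2, CD18) pairs with CD11a (Itgal), CD11b (Itgam), CD11c (Itgax) or CD11d (Itgad), and these receptors bind ICAMs, fibrinogen and complement C3 fragments. The alpha4 chain pairs with beta1 or beta7 to bind VCAM-1 and fibronectin, alphaV with beta1, beta3, beta5, beta6 or beta8 to bind RGD-bearing matrix proteins and latent TGF-beta, and alpha6 with beta1 or beta4 to bind laminin. In the mouse lung, alveolar macrophages are known for high CD11c with little CD11b, while monocytes, interstitial macrophages and neutrophils carry CD11b.

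The genes of the CD11 chains lie on chromosome 7 (build GRCm38, coordinates as in the deposited table). Itgal spans 127296260 to 127335138, Itgam 128062640 to 128118491, Itgax 128129547 to 128150657 and Itgad 128154376 to 128223816, all on the + strand. Itgal ends 727501 bases before Itgam starts, with 46 annotated genes between them. Itgam ends 11055 bases before Itgax starts and Itgax ends 3718 bases before Itgad, with 0 annotated genes in either of these gaps. The promoters of Itgam and Itgax are shown because these neighbours differ in range below: the highest library had 28.7 times the lowest for Itgam, and 1.75 times for Itgax. Each line is the 250 bases before the gene's RefSeq start on the + strand (assembly GRCm38.p6), at chr7:128062390-128062639 for Itgam and chr7:128129300-128129549 for Itgax. Capitals mark matches, on either strand, to GAGGAA (a core bound by the myeloid factor PU.1), TGANTCA (AP-1) and GGGCGG (an Sp1 box).
Itgam: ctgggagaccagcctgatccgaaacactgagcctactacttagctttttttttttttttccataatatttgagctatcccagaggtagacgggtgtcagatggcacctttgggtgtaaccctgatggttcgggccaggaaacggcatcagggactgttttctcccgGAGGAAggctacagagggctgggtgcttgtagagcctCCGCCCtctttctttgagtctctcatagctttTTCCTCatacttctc
Itgax: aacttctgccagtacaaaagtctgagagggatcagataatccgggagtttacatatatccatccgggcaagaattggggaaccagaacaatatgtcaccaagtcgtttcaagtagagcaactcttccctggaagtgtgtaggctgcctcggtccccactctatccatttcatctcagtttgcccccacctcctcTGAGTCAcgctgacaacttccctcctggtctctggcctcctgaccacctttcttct
The Itgam window held GAGGAA at 84 and 15 bases before the start, the later one as its reverse complement, and 1 Sp1 box, also as the reverse complement, 47 bases before it. The Itgax window held 1 AP-1 match 56 bases before the start and no GAGGAA. The matches did not overlap one another. Of 32851 RefSeq promoter windows of the same length, 23.3% held GAGGAA, 6.75% TGANTCA and 32.7% GGGCGG. Windows were found for 7 of the 10 members, of which 3 held GAGGAA, 1 TGANTCA and 4 GGGCGG. These are matches of letters and say nothing of binding.

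The other members are spread over the genome. Itgb2 lies at 77530252 to 77565708 on chromosome 10 and Itgb1 at 128685654 to 128733200 on chromosome 8. On chromosome 2, Itga6 spans 71745616 to 71858416, Itga4 79255426 to 79333123 and Itgav 83724397 to 83806916. Itgb5 spans 33829665 to 33949153 on chromosome 16, and all of these are on the + strand. Itgb7 lies on the - strand of chromosome 15, at 102215995 to 102231935.

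Values are normalized counts. Depth was 15106415 to 88059606 recovered reads per library, and the 2 mitochondrial ribosomal RNAs took 3.12% to 28.99% of them. That share did not overlap between 2-week MHCII-high (22.51% to 26.25%) and 2-week MHCII-low libraries (3.42% to 18.32%). H2-Ab1, an MHCII chain, followed the sort labels, with a mean of 20946 in 2-week and 13871 in 4-week MHCII-high libraries, against 865 and 496 in the MHCII-low ones and 109 in controls. Siglecf was detected in every group, with means from 3520 (2-week MHCII-high) to 8304 (4-week MHCII-low). Markers of other cell types also differed. The 12 markers of monocyte-derived or interstitial macrophages, the 10 of dendritic cells and the 6 of B cells were higher in sum in MHCII-high libraries, and 4-week MHCII-low replicate 1 stood apart from its group by its B cell sum, 2187 against 95.1 and 40.5. These values are given beside the results for the same libraries. In sorted bulk samples, fewer cells of a type and less RNA per cell cannot be told apart.

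Itgam had the largest differences among those past the threshold. It rose in MHCII-high over MHCII-low cells at both times and in MHCII-low cells 2 weeks after bleomycin, and it fell again in MHCII-low cells by 4 weeks. Itgb5 rose in MHCII-low cells at 2 weeks and fell in both gates by 4 weeks, and Itga4 was higher in MHCII-high cells at 2 weeks. Itgax, Itgb2, Itgb1, Itga6 and Itgb7 passed in none of the 8 comparisons of the limma fit on all libraries. Settings under which Itgb2, Itgb1 and Itgb7 passed are given with each gene or, for the replicate block, in the closing section. In MHCII-high against MHCII-low cells at 2 weeks, 2 of 10 members passed an adjusted p of 0.05 (limma), Itgam and Itga4, both higher. Of all 17390 genes tested, 2.87% passed there, 2.29% higher and 0.581% lower (398 and 101 genes; 252 and 113 with scaling by library totals, 297 and 135 with edgeR). At 4 weeks 1 member, Itgam, passed, higher, where 2.50% of all genes did, 1.96% higher and 0.535% lower. Averaged over both times, 4 members passed against 7.21% of all genes: Itgam, Itga4 and Itgav higher, and Itgal lower (2.21% of all genes were lower). That split of all genes, 870 higher and 384 lower, was 763 and 638 with TMM factors, 624 and 717 with library totals and 824 and 607 with edgeR. The members' median log2 fold change was 0.28 at 2 weeks, 0.16 at 4 weeks and 0.22 for the average, beside 0.08, -0.03 and 0.02 over all genes.

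In MHCII-low cells 2 weeks after bleomycin against controls, 2 members passed, Itgb5 and Itgam, both higher, with 1.91% of all genes (1.48% higher and 0.426% lower: 258 and 74 genes, against 198 and 143 with no filter on low values). At 4 weeks against the same controls none did, with 0.0460% of all genes (0.0345% higher and 0.0115% lower: 6 and 2 genes, against 8 and 0 with library totals, 2 and 0 with edgeR, 55 and 19 with DESeq2, and 7 and 58 with no filter, which turns the balance to lower). By unadjusted p, 1 member, Itgb2, was under 0.05 there, and edgeR and DESeq2 also called 0 members. From 2 to 4 weeks, 2 members fell in MHCII-low cells (Itgam and Itgb5). There 0.857% of all genes passed, 0.109% higher and 0.748% lower (19 and 130 genes, against 77 and 243 with DESeq2). In MHCII-high cells 1 member, Itgb5, fell, with 1.07% of all genes, 0.311% higher and 0.759% lower (54 and 132 genes, against 46 and 53 with library totals and 262 and 376 with DESeq2). The change of the high-minus-low difference between 2 and 4 weeks was past the threshold for 0 members and for 0% of all genes. There 1 member, Itgam, had an unadjusted p under 0.05, and edgeR and DESeq2 called 0 members. The comparisons of both times with control share the control libraries, and those of gates and times share the bleomycin libraries.

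**Figure D1:**
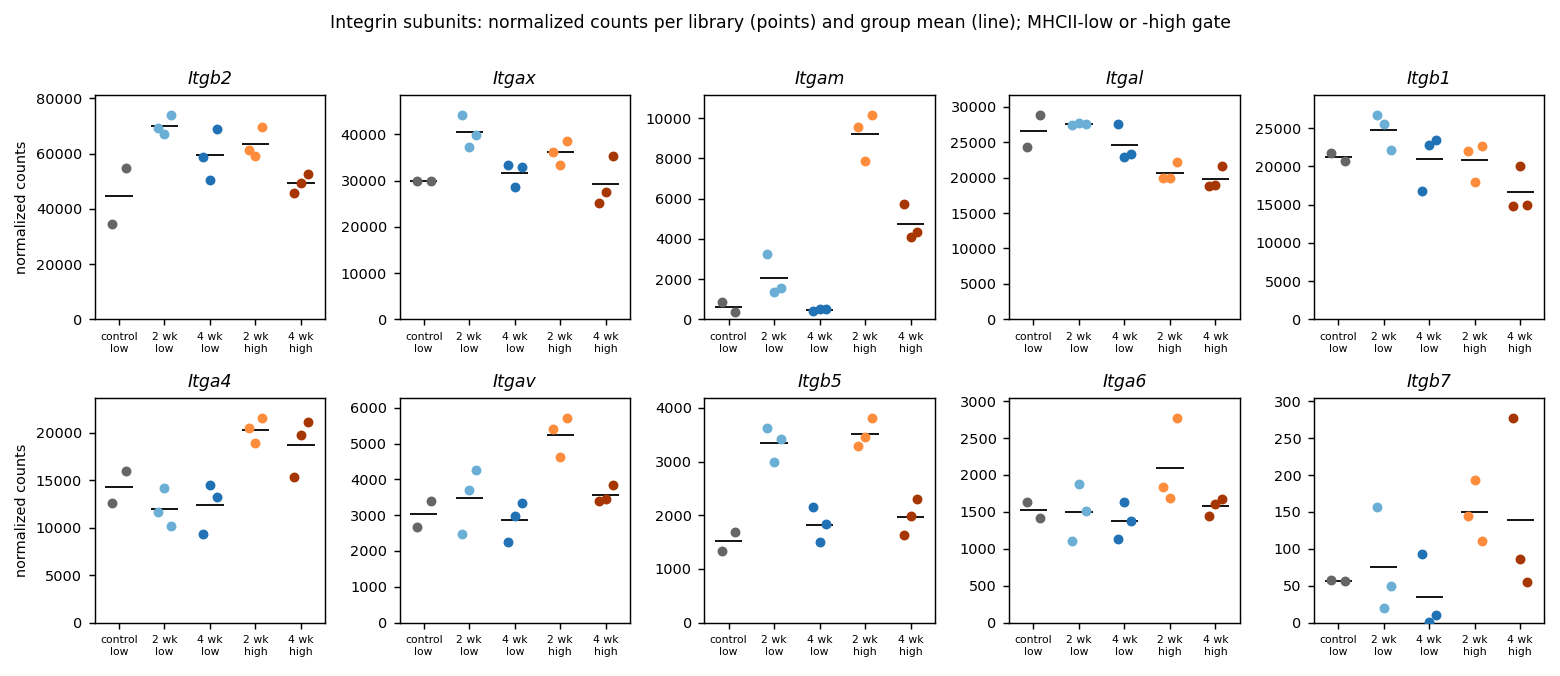
Normalized counts of the 10 members in each of the 14 libraries (points) with group means (lines), each panel on its own linear axis from 0. Itgam separates the MHCII-high libraries (4079.3 to 10138.8) from the MHCII-low ones (353.0 to 3271.1), Itgb5 separates 2-week libraries from all others, and Itgax lies between 25185.0 and 44133.2 throughout.

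**Figure D2:**
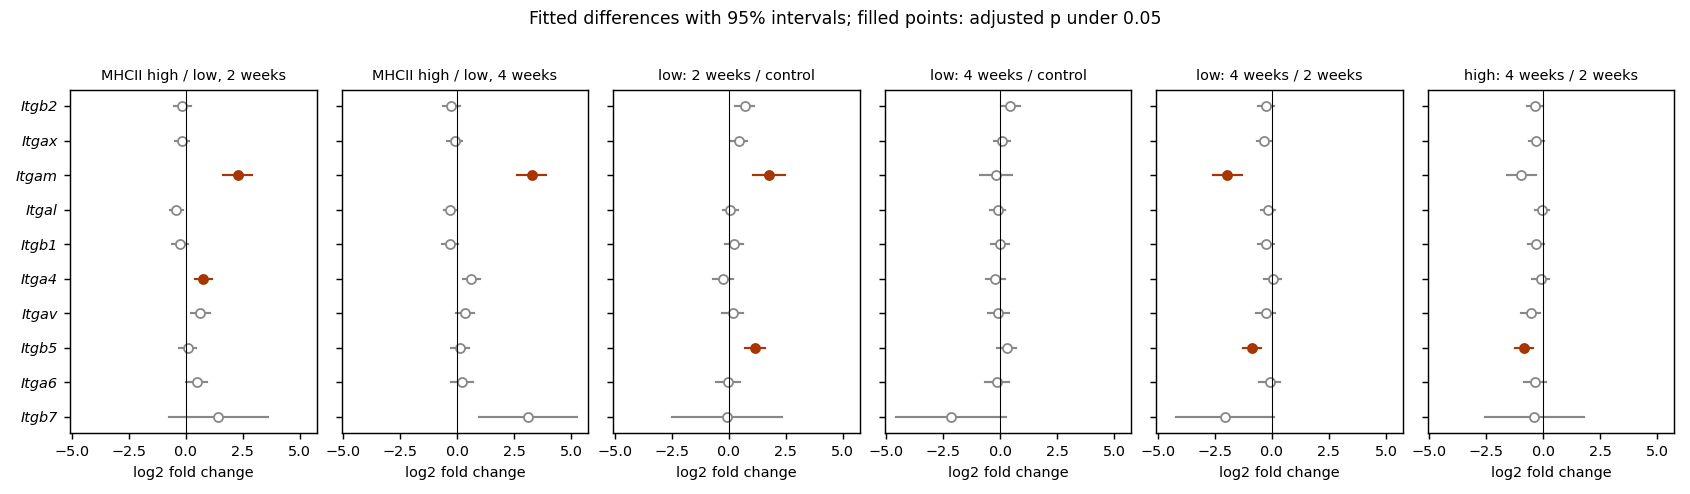
Fitted log2 fold changes of the 10 members in 6 comparisons (points) with 95% intervals (lines); filled points passed an adjusted p of 0.05 in limma. Itgam passed in 4 of these comparisons and Itgb5 in 3, while the interval of Itgb7 is the widest in each panel.

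Itgb2 encodes the shared beta2 chain and had the highest level of all integrin genes per kb of exon, a mean of 19091 normalized counts per kb over the 14 libraries. Its counts were 34526.6 and 54877.3 in controls, 69239.3, 67105.8 and 73925.7 in 2-week MHCII-low cells, and 58848.3, 50358.7 and 69101.1 at 4 weeks. MHCII-high cells had 61289.9, 59206.4 and 69616.6 at 2 weeks and 45693.4, 49436.1 and 52482.3 at 4 weeks. The 2-week MHCII-low libraries lay above both controls, with a log2 difference of 0.69 ± 0.20 (SE; adjusted p = 0.084), which missed the threshold in limma and passed it in DESeq2 (0.66, adjusted p = 0.021). It also passed without control replicate 3 (1.02, adjusted p = 0.027). In all neighbouring pairs of the order of group means, from 70090 in 2-week MHCII-low cells down to 44702 in controls, the libraries overlapped. The high-minus-low differences were -0.15 at 2 weeks (95% interval -0.51 to 0.22) and -0.26 at 4 weeks (-0.63 to 0.10).

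Itgax, the CD11c chain, was the most abundant alpha subunit, at 8343 per kb. Its counts were 29823.3 and 29931.0 in controls. MHCII-low cells had 44133.2, 37355.5 and 39847.2 at 2 weeks and 33422.5, 28614.2 and 33021.1 at 4 weeks. MHCII-high cells had 36214.5, 33405.4 and 38614.5 at 2 weeks and 25185.0, 27593.2 and 35320.9 at 4 weeks. All neighbours in the order of group means overlapped, with 2-week MHCII-low cells highest (40445 ± 3428, SD, n = 3) and 4-week MHCII-high cells lowest (29366 ± 5295, n = 3). Itgax passed the threshold in none of the comparisons. Between gates its log2 difference was -0.16 at 2 weeks (95% interval -0.48 to 0.15) and -0.12 at 4 weeks (-0.44 to 0.20). The largest value was 0.43 ± 0.17 for 2-week MHCII-low cells over controls, where the libraries did not overlap and the adjusted p was 0.26.

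Itgam encodes CD11b, the alpha chain of the receptor Mac-1. Its counts were 884.6 and 353.0 in controls, 3271.1, 1336.0 and 1534.0 in 2-week MHCII-low cells, and 412.5, 530.4 and 522.4 at 4 weeks. In MHCII-high cells they were 9559.9, 7876.4 and 10138.8 at 2 weeks and 5748.4, 4079.3 and 4337.8 at 4 weeks. Every MHCII-high library lay above every MHCII-low one, and the order of group means was 2-week high (9192 ± 1175, SD, n = 3), 4-week high (4722 ± 898), 2-week low (2047 ± 1065), control (619 ± 376, n = 2) and 4-week low (488 ± 65.9). Of neighbours in that order, only control and 4-week low libraries overlapped.

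The high-over-low difference of Itgam was 2.28 ± 0.30 on the log2 scale at 2 weeks, a 4.84-fold difference (adjusted p = 0.00011, limma). It was 3.26 ± 0.30 at 4 weeks, a 9.6-fold difference (adjusted p = 6.8e-07). These 2 calls held in all 12 other settings and in each of 6 fits that left out 1 library. With the mitochondrial ribosomal RNA share as a covariate the difference was 2.58 at 2 weeks and 3.47 at 4 weeks. The change of the difference between times was 0.99 ± 0.43 (adjusted p = 0.81), so it was not shown to differ between 2 and 4 weeks. Between 2 and 4 weeks Itgam fell by 1.96 ± 0.30 in MHCII-low cells (adjusted p = 0.0011). In MHCII-high cells the difference was -0.97 ± 0.30 (adjusted p = 0.13), with no overlap between the libraries.

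In MHCII-low cells Itgam rose 3.37-fold at 2 weeks over controls (log2 1.75 ± 0.34, adjusted p = 0.0056). This call rests on the controls: without control replicate 3 the log2 difference was 1.09 with an adjusted p of 0.32. It also missed the threshold with the mitochondrial RNA share as a covariate (1.49, adjusted p = 0.054) and when only these 5 libraries were fitted (adjusted p = 0.21). At 4 weeks the difference from controls was -0.20 (95% interval -0.91 to 0.50).

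Markers of other cell types moved with Itgam. Of the 12 monocyte-derived or interstitial macrophage markers, all tested, 9 were higher in MHCII-high cells at 2 weeks and 8 at 4 weeks, Ccr2, Cx3cr1 and C1qc among them. Their summed normalized counts were 60734 to 75880 against 29225 to 33353 at 2 weeks and 34409 to 44415 against 17850 to 22452 at 4 weeks, with 15783 and 18965 in controls. No marker of that list was at 0 in any group. In 2-week MHCII-low cells 7 of the 12 were higher than in controls. Of 14 resident alveolar macrophage markers, 9 were lower in MHCII-high cells at 2 weeks and 5 at 4 weeks, with sums of 327195 to 407052 against 529843 to 624657 and 365537 to 439850 against 450702 to 550257. None of these 14 was at 0 in a group. Relative to the summed 12 monocyte-derived or interstitial macrophage markers, which do not include it, Itgam stood at 1.86% and 5.60% in controls. It stood at 4.57% to 9.81% in 2-week and 1.84% to 2.97% in 4-week MHCII-low libraries. In MHCII-high libraries it stood at 9.77% to 16.7%.

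**Figure D3:**
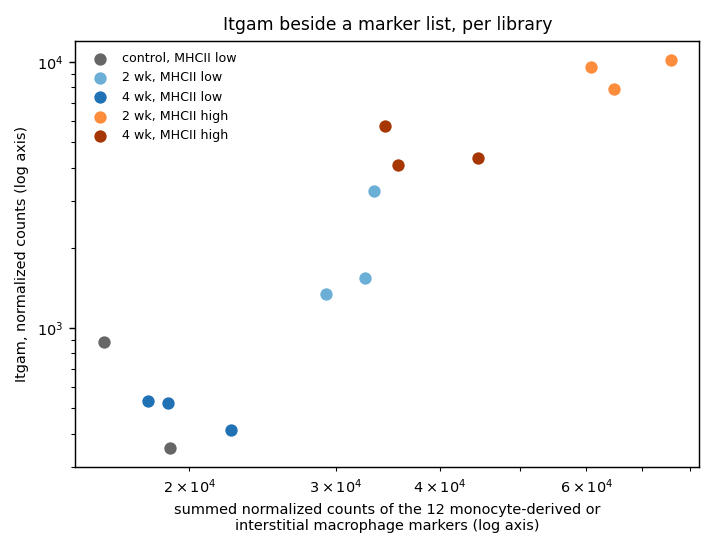
Itgam normalized counts against the summed normalized counts of 12 monocyte-derived or interstitial macrophage markers, 1 point per library, both axes logarithmic. The 2-week MHCII-high libraries are highest on both (7876.4 to 10138.8 and 60734 to 75880), and controls and 4-week MHCII-low libraries lowest.

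Neutrophils also carry CD11b, and usually lack SiglecF. Their share among the sorted cells was not tested. The 8 neutrophil markers summed to 3610 to 5229 in 2-week MHCII-low libraries against 766 and 1402 in controls and 820 to 1358 at 4 weeks, and to 2890 to 5347 and 816 to 1988 in MHCII-high libraries at 2 and 4 weeks. Of 6 tested, 1 (Cxcr2) was higher in 2-week MHCII-low cells than in controls, and none passed between gates (limma; unadjusted p under 0.05 for 0 at either time; edgeR called 0, DESeq2 1 at 2 weeks). Ly6g was at 0 in 4-week MHCII-low and 2-week MHCII-high libraries, and Camp in 2-week and 4-week MHCII-low and 4-week MHCII-high libraries. Of the 6 eosinophil markers 5 had reads in controls and in 2-week MHCII-high libraries. In 2-week MHCII-low and 4-week MHCII-high libraries 4 had reads, and in 4-week MHCII-low libraries 3. Prg2 was at 0 in all 5 groups, and the list summed to at most 419 in any library. The part of these cell types in the Itgam result was not tested.

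Itgal encodes CD11a, the alpha chain of LFA-1, and had 3705 per kb. Counts were 24244.4 and 28788.6 in controls, 27444.2, 27723.2 and 27571.3 in 2-week and 27595.4, 22838.6 and 23330.8 in 4-week MHCII-low cells. MHCII-high cells had 19934.3, 19918.4 and 22197.7 at 2 weeks and 18835.1, 18929.4 and 21616.1 at 4 weeks. All 6 MHCII-high libraries lay below all 8 MHCII-low ones. Averaged over times Itgal was lower in MHCII-high cells by 0.36 ± 0.10 on the log2 scale (adjusted p = 0.028). The differences at 2 weeks (-0.42, adjusted p = 0.13) and at 4 weeks (-0.31, adjusted p = 0.30) did not pass in limma. In DESeq2 the 2-week difference passed (-0.43, adjusted p = 0.027). The average missed the threshold without any 1 of 5 libraries (4-week low replicate 1, and replicates 1 and 2 of each high group; adjusted p up to 0.074), with the mitochondrial RNA covariate (0.17) and with the GC trend removed (0.052).

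Per kb of exon, Itgax took 59.5% to 67.5% of the summed level of Itgax, Itgal, Itgam and Itgad in each library. The Itgam share was 0.812% ± 0.520 in controls (SD, n = 2), 2.09% ± 0.935 and 0.634% ± 0.133 in the MHCII-low cells of 2 and 4 weeks, and 10.4% ± 0.654 and 6.60% ± 1.79 in MHCII-high cells (n = 3 each). The Itgal share was 34.3%, 28.9% and 31.5% in the MHCII-low groups in the same order, and 23.4% and 27.3% in the MHCII-high groups. Itgb2 was 1.21 to 1.59 times the summed alpha level in the group means. These are shares of transcripts and not of receptors on the surface.

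**Figure D4:**
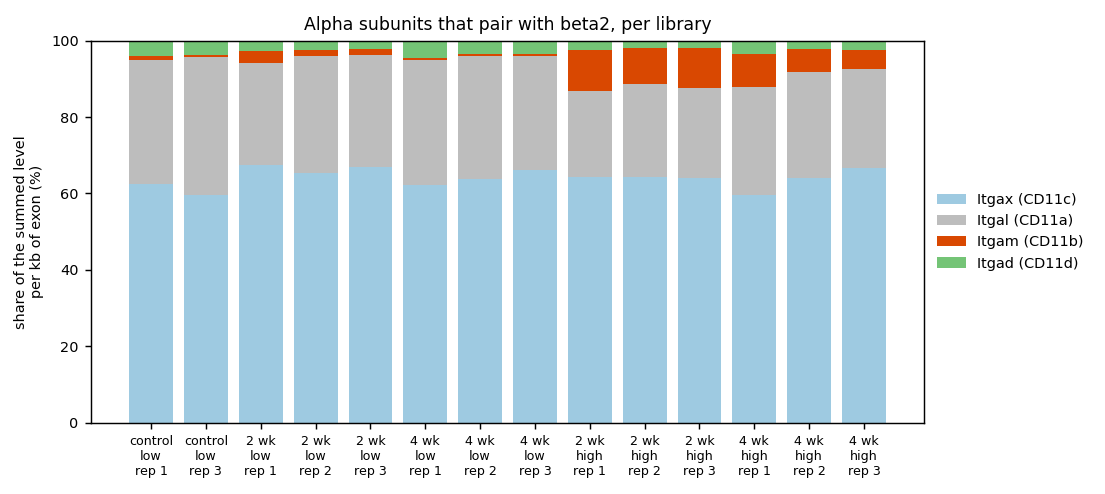
Share of each beta2-pairing alpha subunit in their summed level per kb of exon, stacked to 100% for each library. The Itgam band is 5.19% to 10.8% in MHCII-high libraries and 0.445% to 3.17% in MHCII-low ones, and the Itgax band is 59.5% to 67.5%.

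Itga4, the alpha4 chain of VLA-4, had 1120 per kb. Counts were 12594.5 and 16035.2 in controls, 11681.6, 14153.0 and 10226.5 in 2-week and 9361.1, 14517.9 and 13278.0 in 4-week MHCII-low cells. They were 20498.7, 18971.4 and 21540.1 in MHCII-high cells at 2 weeks and 15372.0, 19797.0 and 21182.8 at 4 weeks. At each time the MHCII-high libraries lay above the MHCII-low ones. Itga4 was 1.70-fold higher at 2 weeks (log2 0.77 ± 0.18, adjusted p = 0.021). The 4-week difference of 0.61 ± 0.18 had an adjusted p of 0.082. That difference passed in DESeq2 (0.6, adjusted p = 0.035) and with a replicate block (0.61, adjusted p = 0.047). It also passed without 4-week MHCII-high replicate 1 (0.75, adjusted p = 0.046). The average over times was 0.69 ± 0.13 (adjusted p = 0.0014). That average held without each library in turn, and missed with the mitochondrial RNA covariate (0.47, adjusted p = 0.092). The 2-week call was lost without any 1 library except MHCII-low replicate 2 (adjusted p 0.068 to 0.090) and in 5 of 12 other settings, with adjusted p up to 0.28.

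Itgb1, the main partner of alpha4, alpha5 and alpha6, had 5114 per kb. Its counts were 21790.3 and 20653.9 in controls, 26696.9, 25543.3 and 22094.4 in 2-week and 16761.0, 22818.0 and 23418.2 in 4-week MHCII-low cells. MHCII-high cells had 21976.5, 17973.7 and 22643.4 at 2 weeks and 14783.0, 20112.4 and 14911.0 at 4 weeks. Groups overlapped between gates at both times. The averaged high-minus-low difference was -0.29 ± 0.12 (adjusted p = 0.15); it passed when libraries were scaled by their totals (-0.45, adjusted p = 0.022) and with the GC trend removed (-0.44, adjusted p = 0.0076). The ratio of Itgb1 to Itga4 per kb was 3.51 ± 0.225 and 3.06 ± 0.571 in MHCII-high cells at 2 and 4 weeks, against 7.14 ± 0.856 and 5.85 ± 0.410 in MHCII-low cells (SD, n = 3 each).

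Itgb7, the other partner of alpha4 and the partner of alphaE, was the least abundant member, at 34.1 per kb. Counts were 57.7 and 56.0 in controls, 156.6, 19.1 and 50.1 in 2-week and 92.6, 1.0 and 10.7 in 4-week MHCII-low cells. MHCII-high cells had 144.6, 193.3 and 110.3 at 2 weeks and 276.8, 86.3 and 54.8 at 4 weeks. The lowest value rests on 1 read and the highest on 133. The averaged high-minus-low difference of 2.26 ± 0.74 had an adjusted p of 0.067. At 4 weeks it was 3.09 ± 1.04 (adjusted p = 0.14). The 4-week value depends on MHCII-low replicate 1, the library with the high B cell sum: without it the difference was 4.52 with an adjusted p of 0.016, and the average 2.97 (adjusted p = 0.0079). With the mitochondrial RNA covariate both the 4-week difference (4.58, adjusted p = 0.0039) and the average (4.09, adjusted p = 0.0010) passed. The average also passed, at an adjusted p of 0.05, without 4-week MHCII-high replicate 3.

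B cell and dendritic cell markers differed between gates, but did not follow Itgb7 library by library. Itgb7 was 156.6 in 2-week MHCII-low replicate 1, with a B cell sum of 219 and a dendritic cell sum of 266. It was 86.3 in 4-week MHCII-high replicate 2, where these sums were 3830 and 2758. Of 6 B cell markers 2 were higher in MHCII-high cells at 2 weeks and 4 at 4 weeks, and their sum was 1234 to 1680 against 49.4 to 219, and 804 to 3830 against 40.5 to 2187. Cd79b and Pax5 were at 0 in the 4-week MHCII-low group and Pax5 in controls. Of 10 dendritic cell markers 4 and then 5 were higher, with sums of 1256 to 2584 against 130 to 266 and 1749 to 2758 against 101 to 241. Cd209a was at 0 in both MHCII-low bleomycin groups. These cells are also known to carry Itgax, Itga4 or both. Their part in the values of these genes was not tested.

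Itgav, the alphaV chain, had 342 per kb. Counts were 2673.8 and 3397.1 in controls, 2476.8, 3692.7 and 4267.2 in 2-week and 2253.7, 2964.8 and 3342.4 in 4-week MHCII-low cells. In MHCII-high cells they were 5396.4, 4617.7 and 5706.3 at 2 weeks and 3396.6, 3453.3 and 3846.1 at 4 weeks. The 2-week MHCII-high libraries were above all others, and the other groups overlapped with their neighbours. Averaged over times Itgav was 1.39-fold higher in MHCII-high cells (log2 0.48 ± 0.14, adjusted p = 0.041). That call was lost in 6 of 12 other settings, with adjusted p up to 0.39. It was also lost in 10 of the 12 fits that left out 1 library (adjusted p 0.051 to 0.13), and held without 2-week MHCII-low replicate 3 or 4-week MHCII-low replicate 3. The 2-week difference alone was 0.62 (adjusted p = 0.10).

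Itgb5, the beta5 partner of alphaV, which binds vitronectin, had 744 per kb. Counts were 1341.2 and 1682.2 in controls, 3624.6, 2995.3 and 3414.9 in 2-week MHCII-low cells, and 2152.5, 1495.1 and 1830.6 at 4 weeks. MHCII-high cells had 3298.6, 3468.4 and 3806.2 at 2 weeks and 1629.6, 1981.6 and 2312.5 at 4 weeks. All 6 libraries of 2 weeks lay above all 8 others, and the gates overlapped at each time. In MHCII-low cells Itgb5 rose 2.22-fold at 2 weeks over controls (log2 1.15 ± 0.21, adjusted p = 0.0028), a call that was lost without control replicate 1 (0.99, adjusted p = 0.11) and when only these 5 libraries were fitted (adjusted p = 0.075). From 2 to 4 weeks it fell by 0.88 ± 0.19 in MHCII-low cells (adjusted p = 0.018) and by 0.85 ± 0.19 in MHCII-high cells (adjusted p = 0.028). Between gates the difference was 0.08 at 2 weeks (95% interval -0.31 to 0.46) and 0.11 at 4 weeks (-0.27 to 0.50).

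The time calls of Itgb5 had little room. In MHCII-low cells the call was lost without 2-week replicate 1 or 3 or 4-week replicate 2 or 3 (adjusted p 0.061 to 0.15) and with scaling by library totals (-0.73, adjusted p = 0.22). In MHCII-high cells it was lost without any 2-week replicate or 4-week replicate 1 (adjusted p 0.074 to 0.10) and with scaling by library totals (-0.70, adjusted p = 0.16). That scaling moves the median of all genes by 0.15 in both comparisons. The ratio of Itgav to Itgb5 per kb was 0.628 ± 0.00566 in controls (n = 2) and 0.330 ± 0.101 and 0.466 ± 0.0476 in MHCII-low and MHCII-high cells at 2 weeks. At 4 weeks it was 0.507 ± 0.157 and 0.572 ± 0.0701 (SD, n = 3 each).

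Itga6, the alpha6 laminin receptor chain, had 180 per kb. Counts ran from 1109.8 in a 2-week MHCII-low library to 2767.1 in a 2-week MHCII-high one. Group means were 1528 ± 152 in controls (SD, n = 2), 1498 ± 382 and 1379 ± 251 in MHCII-low and 2096 ± 586 and 1574 ± 115 in MHCII-high cells at 2 and 4 weeks (n = 3 each). The averaged high-minus-low difference was 0.34 (95% interval 0.01 to 0.67, adjusted p = 0.22), and Itga6 passed in none of the 8 comparisons.

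Across the 14 libraries, the log2 values of Itgam correlated with those of Itga4 (Pearson r = 0.66), Itgav (0.67) and, with the opposite sign, Itgal (-0.68). Itgax was closest to Itgb5 (0.83) and Itgb2 (0.75). With its neighbour Itgam it had r = 0.21. The libraries fall into groups and share depth and scaling, so these values describe the groups rather than 14 independent points. Among 9994 genes with a mean of at least 100, those most like Itgam included Fyb (r = 0.975) and Pstpip1 (0.967). Those most like Itgax were Pccb (0.896), Hist1h1c (0.890) and Hexa (0.889). Itgb5 was most like Ifngr2 (0.961), Pccb (0.942) and Mmp19 (0.940). For Itga4 they were Psd3 (0.929), Lrp6 (0.920) and Slco3a1 (0.919). For Itgal they were Plekha6 (0.915), Zfp691 (0.899) and Coq5 (0.887), and for Itgav Gatsl2 (0.919), Hif1a (0.917) and Mdfic (0.913).

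Of the other 17 subunits 16 were tested. Itgb2l, a relative of Itgb2, had at most 1.0 normalized count. Itga5, which pairs with beta1 as the fibronectin receptor, was the most abundant at 1022 per kb, and like Itgb5 it was highest in the 2-week libraries. Its counts were 2930.9 and 3967.0 in controls, 6394.6, 5950.7 and 6262.7 in 2-week and 3904.5, 2765.7 and 3727.3 in 4-week MHCII-low cells, and 5558.9, 6536.3 and 5957.3 in 2-week and 3350.8, 2642.1 and 2734.9 in 4-week MHCII-high cells. It rose by 0.86 ± 0.19 at 2 weeks over controls (adjusted p = 0.017). It fell by 0.86 ± 0.17 in MHCII-low cells (adjusted p = 0.012) and by 1.05 ± 0.17 in MHCII-high cells (adjusted p = 0.0047) by 4 weeks. Leaving out control replicate 1 ended the first of these calls (adjusted p = 0.37), as did leaving out 2-week MHCII-low replicate 1 or 3 (0.062 and 0.056). The fall in MHCII-low cells was lost without 2-week replicate 1 or 3 or 4-week replicate 2 (0.058, 0.056 and 0.11), and scaling by library totals ended all 3. The rise over controls was also lost with the mitochondrial RNA covariate (adjusted p = 0.13).

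Itgb3, another alphaV partner, had 43.2 and 8.6 in controls, 60.4, 49.4 and 41.3 in 2-week and 0.0, 7.8 and 2.1 in 4-week MHCII-low cells. MHCII-high cells had 264.0, 366.2 and 117.3, and 141.5, 241.6 and 68.2. It was higher in MHCII-high cells at 4 weeks (5.47 ± 0.88, adjusted p = 0.00076), and on average (3.81 ± 0.63, adjusted p = 0.00037). In MHCII-low cells it fell by 4.08 ± 0.88 from 2 to 4 weeks (adjusted p = 0.025), a call lost without any 1 of these libraries except 4-week replicate 2. Itgb8, which pairs with alphaV and binds latent TGF-beta, had at most 3.9 in MHCII-low libraries and 15.6 to 47.9 in MHCII-high ones. It was higher at 4 weeks (4.61 ± 1.09, adjusted p = 0.022) and on average (4.19 ± 0.77, adjusted p = 0.0012). The 4-week call of Itgb8 was lost without MHCII-low replicate 1 or 3 or MHCII-high replicate 1 or 3, in edgeR on reads (adjusted p = 0.14) and with the mitochondrial RNA covariate (0.077).

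Itgae, CD103, passed for the average alone (1.88 ± 0.54, adjusted p = 0.035). Its counts were 13.9 to 60.3 in MHCII-low and 38.2 to 327.7 in MHCII-high libraries. That call was lost without any 1 of 8 of the 12 bleomycin libraries (adjusted p up to 0.12) and held without replicate 2 of any group but 2-week MHCII-high, or without 2-week MHCII-high replicate 3. Itgad, the CD11d neighbour of Itgax, had 1021.4 to 2751.9 and an averaged high-minus-low difference of -0.51 ± 0.16 (adjusted p = 0.054). The remaining subunits passed in none of the comparisons: Itga1 (522.6 to 885.4), Itga9 (1.0 to 291.7), Itga3 (9.4 to 258.8), Itga2 (0.0 to 167.2), Itgb4 (0.0 to 155.0), Itgb6 (4.3 to 120.8), Itga2b (0.0 to 97.8), Itga11 (0.0 to 68.9), Itga8 (0.0 to 63.9), Itga10 (0.0 to 44.6) and Itga7 (0.0 to 18.0). At 2 weeks 0 of the 16 passed between gates in limma, with 4 at an unadjusted p under 0.05, 0 in edgeR and 2 in DESeq2.

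Of 34 listed ligands 29 were tested. In 2-week MHCII-low cells 7 were higher than in controls and none lower, with a median log2 difference of 0.77 beside -0.09 over all genes. Spp1, osteopontin, a ligand of alphaV and alpha4 integrins, rose from 6964.1 and 7388.3 to between 79824.1 and 105619.8 (log2 3.73 ± 0.24, adjusted p = 6.4e-09). Fn1, fibronectin, rose from 27740.5 and 32671.2 to between 196439.1 and 242793.4 (2.82 ± 0.23, adjusted p = 2e-07). Lamc1, a laminin chain, rose by 1.60 ± 0.22 (adjusted p = 0.00020). C3, whose fragment iC3b binds CD11b and CD11c, rose by 0.96 ± 0.18 (adjusted p = 0.0054), a call lost without either control (adjusted p 0.062 and 0.096). The other 3 ligands called were Cdh1, E-cadherin, the adhesion protein F11r and Tnc, tenascin C, which was listed at 0.0 in both controls and had 98.4, 226.1 and 50.1 at 2 weeks. Without either control Cdh1 (adjusted p 0.063 and 0.13), F11r (0.28 each) and Tnc (0.14 and 0.15) also lost their calls, so that of the 7 only Spp1, Fn1 and Lamc1 kept theirs.

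The summed markers of matrix-producing cells and of endothelial cells were also higher in 2-week MHCII-low libraries than in controls. Single markers went both ways: the median log2 difference was 1.49 for the 5 fibroblast markers and -0.3 for the 5 endothelial ones. The marker Col1a1 and the endothelial marker Pecam1 are on the ligand list too, so these lists are not independent. The 5 fibroblast markers summed to 485 to 804 in 2-week MHCII-low libraries, against 169 and 215 in controls and 138 to 259 at 4 weeks, and to 75.4 to 861 and 21.9 to 311 in MHCII-high libraries at 2 and 4 weeks. None passed at 2 weeks against controls (limma; 1, Col1a1, at an unadjusted p under 0.05; edgeR and DESeq2 0), and 1, Col1a1, was lower at 4 than at 2 weeks in MHCII-low cells. The 5 endothelial markers summed to 2944 to 4840, against 1810 and 2398 and then 1719 to 2778, and 1 of them, Vwf, was higher at 2 weeks than in controls and lower at 4 than at 2 weeks. No marker of either list was at 0 in a group. The part of these cells in the ligand values was not tested.

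By 4 weeks 6 ligands had fallen in MHCII-low cells, with a median of -0.43 beside 0.03 over all genes. Spp1 fell by 3.06 ± 0.22, Fn1 by 1.78 ± 0.21, C3 by 0.99 ± 0.16 and Lamc1 by 1.12 ± 0.20 (adjusted p 6.5e-08, 4.6e-05, 0.0020 and 0.0040). In MHCII-high cells 4 fell, and the median was -1.15 beside -0.07: Spp1 by 2.03 ± 0.22, C3 by 1.05 ± 0.16, Fn1 by 1.15 ± 0.21 and Mfge8, an alphaV ligand, by 2.64 ± 0.56 (adjusted p 0.00011, 0.0038, 0.0091 and 0.025). In MHCII-low cells the other 2 that passed were Tnc and Col1a1, a collagen chain, and both lost their calls without any 1 of the 6 libraries (adjusted p up to 0.19 and 0.22) and in 5 of 11 other settings. In MHCII-high cells the Fn1 call was lost without 2-week MHCII-high replicate 3 (adjusted p = 0.063), and that of Mfge8 without any 2-week replicate or 4-week replicate 3. Against controls at 4 weeks 0 ligands passed in limma and in edgeR, 2 did in DESeq2, and 8 had an unadjusted p under 0.05.

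Between gates, Vcam1, the counter-receptor of alpha4, was higher in MHCII-high cells. Its counts were 437.9, 228.6 and 254.6 against 42.5, 39.8 and 31.4 at 2 weeks, and 366.3, 210.2 and 77.9 against 1.7, 12.7 and 4.3 at 4 weeks. The difference was 2.94 ± 0.77 (adjusted p = 0.041) and 4.98 ± 0.77 (adjusted p = 0.00056), of which the 2-week call was lost without any 1 of its 6 libraries (adjusted p 0.085 to 0.19). Fn1 (1.28 ± 0.21, adjusted p = 0.00090), Spp1 (1.18 ± 0.22, adjusted p = 0.0025) and Lamc1 (1.01 ± 0.20, adjusted p = 0.0055) were higher in MHCII-high cells at 4 weeks. C3 was lower at 2 weeks (-0.69 ± 0.16, adjusted p = 0.023) and at 4 weeks (-0.75 ± 0.16, adjusted p = 0.014). Its 2-week call was lost without replicate 1 or 3 of the low or 1 or 2 of the high cells, and its 4-week call without low replicate 1 or high replicate 2. Both C3 calls were also lost with the mitochondrial RNA covariate (adjusted p 0.24 and 0.064). Icam1, a ligand of the beta2 family, passed in none of the comparisons, with group means from 1946 to 2829.

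**Figure D5:**
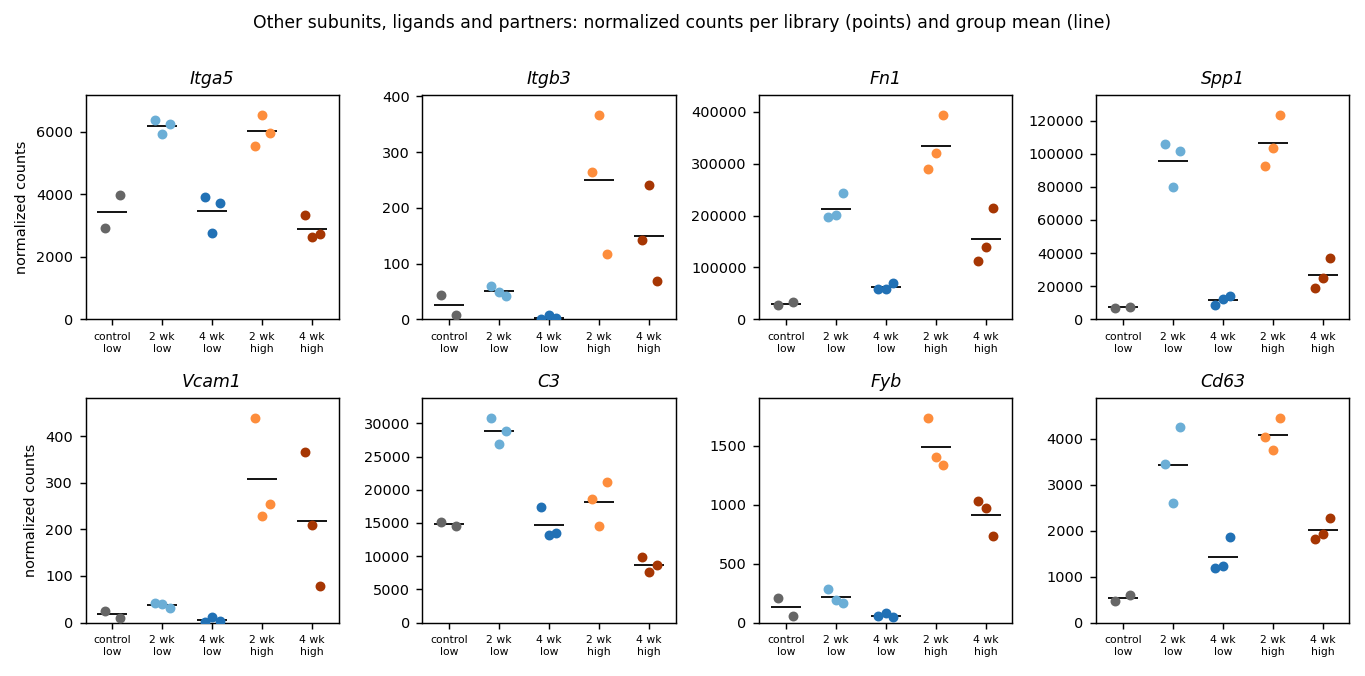
Normalized counts of 2 other integrin subunits, 4 ligands, the adaptor Fyb and the tetraspanin Cd63 in each library (points) with group means (lines), each panel on its own linear axis from 0. Itga5, Spp1 and Cd63 are highest at 2 weeks in both gates, while Itgb3, Vcam1 and Fyb are highest in MHCII-high libraries.

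All 19 genes of integrin activation (talins, kindlins, Rap1 and its partners) were tested. Between gates 1 was higher and 1 lower at 2 weeks, and 2 were higher and 0 lower at 4 weeks. On average 2 were higher and 2 lower. Of all genes 2.87%, 2.50% and 7.21% passed in these 3 comparisons. Fyb, an adaptor also called ADAP that links Rap1 signalling to beta2 integrins, had 1337.1 to 1731.4 in 2-week and 731.5 to 1028.1 in 4-week MHCII-high libraries. In the MHCII-low libraries it had 165.7 to 286.4 and 44.8 to 78.4. It was higher by 2.82 ± 0.42 at 2 weeks (adjusted p = 0.00037) and by 3.96 ± 0.42 at 4 weeks (adjusted p = 3.6e-06). Rasgrp2, a Rap1 exchange factor, was higher at 4 weeks (3.95 ± 0.84, adjusted p = 0.011), a call lost without MHCII-low replicate 2 or 3 (adjusted p 0.065 and 0.054). Apbb1ip, the Rap1 effector RIAM, was lower at 2 weeks (-0.69 ± 0.18, adjusted p = 0.043), a call lost without any 1 library except MHCII-low replicate 3. On average Fyb and Rasgrp2 were higher and Apbb1ip and Flna, filamin A, lower. The averaged call of Apbb1ip was lost without any 1 of 7 of the 12 bleomycin libraries (adjusted p up to 0.11) and that of Flna without any 1 of 9 (adjusted p up to 0.10). In MHCII-low cells Fyb fell by 1.86 ± 0.42 from 2 to 4 weeks (adjusted p = 0.032), lost without any 1 library except 4-week replicate 2. The median of the list was 0.06 and 0.01 between gates at 2 and 4 weeks, beside 0.08 and -0.03 over all genes.

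Of 23 signalling and adhesion adaptor genes 22 were tested. Tns3, a tensin that binds beta integrin tails, was higher in MHCII-high cells at 2 weeks (1.64 ± 0.27, adjusted p = 0.00090) and at 4 weeks (1.32 ± 0.27, adjusted p = 0.0064). Src, a kinase activated by integrins, was higher by 3.45 ± 0.65 (adjusted p = 0.0038) and 2.73 ± 0.65 (adjusted p = 0.023). Its 4-week call was lost without MHCII-low replicate 2 or 3 or MHCII-high replicate 3. On average Vcl, vinculin, was also higher, a call lost without any 1 of 8 of the 12 bleomycin libraries (adjusted p up to 0.11). Tns1 was lower on average, lost without 2-week MHCII-high replicate 2 (adjusted p = 0.052) or 4-week MHCII-high replicate 3 (0.051). None of this list passed over time or against controls in limma and in edgeR; at an unadjusted p under 0.05 there were 4 at 2 weeks and 0 at 4 weeks against controls and 4 over time in each gate, and DESeq2 called 1, 0, 0 and 2.

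Of the 11 membrane partners, Cd63, a tetraspanin of late endosomes that associates with beta1 integrins, was also highest at 2 weeks. It had 472.9 and 592.3 in controls, 3443.4, 2594.0 and 4241.4 in 2-week and 1178.3, 1220.6 and 1855.1 in 4-week MHCII-low cells, and 4022.6, 3755.1 and 4437.8, then 1825.2, 1922.0 and 2277.2, in MHCII-high cells. It rose by 2.66 ± 0.24 at 2 weeks over controls (adjusted p = 4.5e-07). At 4 weeks it was still higher, by 1.39 ± 0.24 (adjusted p = 0.029), a call lost without either control or 4-week replicate 2 or 3. It fell by 1.28 ± 0.21 in MHCII-low cells (adjusted p = 0.0020) and by 1.02 ± 0.21 in MHCII-high cells (adjusted p = 0.021). The last call was lost without any 2-week replicate or 4-week replicate 1. On average over times the tetraspanins Cd9 (-0.56 ± 0.11, adjusted p = 0.0030) and Cd81 and the immunoglobulin protein Bsg were lower in MHCII-high cells; the Bsg call was lost without any 1 of 7 of the 12 bleomycin libraries (adjusted p up to 0.12). Cd81 (-0.37 ± 0.11) was at the threshold, with an adjusted p that rounds to 0.050, and was lost without any 1 of 9 libraries (adjusted p up to 0.15). With the mitochondrial RNA covariate all 3 calls were lost (adjusted p 0.12 for Cd9, 0.30 for Cd81 and 0.41 for Bsg), and with the GC trend removed those of Cd81 (0.21) and Bsg (0.25). At single times 0 of the 11 passed between gates in limma, with 4 at an unadjusted p under 0.05 each time; edgeR called 0 and 1, and DESeq2 2 and 1.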

How the data were processed

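The sources are 1 deposited table of mouse genes with 14 columns, 1 per library, and the labels. The authors deposited a signal, named as normalized counts in the headers, made from gene counts; the submitters' processing notes name STAR, DESeq2 and build mm10 without versions or roles. Per the labels' protocols, cDNA was amplified and no molecular identifiers are described. Low values were whole multiples of 1 step per library within the rounding of 0.05 (100.0% of those tested), so reads were recovered by dividing by the step, 0.39 to 2.24 normalized counts; at the smallest step, that of control replicate 1, rounding makes this check weak. GC percent and exon length (a deposited length in bases) were used as the authors gave them, the latter for levels per kb. Rows without a symbol (652) were kept by identifier.

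The 17390 genes reaching 10 normalized counts in 2 or more libraries entered limma 3.58.1 (R 4.3.3) on log2(value + 1), with a mean-variance trend, 1 coefficient per group and all 14 libraries. Benjamini-Hochberg adjustment ran over all genes tested in each of 8 comparisons, with a threshold of 0.05; an adjusted p with no tool beside it is from limma. Log2 differences of value + 1 understate changes of low genes; ± after a fold change is the SE. Reads were also tested with edgeR 4.0.16 and DESeq2 1.42.0. The fit was tested on simulated data. Other settings were TMM factors, library totals, no filter, a minimum of 5 CPM, pseudocounts of 0.5 and 5, a mitochondrial RNA covariate, GC trend removal, only the groups compared, a replicate block and leaving out each library.

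Members and lists (subunits, ligands, activation, signalling, membrane partners and 12 marker lists, including T and NK cell, mast cell and basophil, platelet, epithelium, fibroblast and endothelium markers) were chosen with earlier results of these data known. Members are named throughout, other subunits wherever tested, and of each other list up to 4 genes per comparison with the smallest p among those past the threshold. Icam1, C3 at 4 weeks between gates, and Cdh1, F11r, Tnc and Col1a1 fall outside this rule and were named after their values were seen. For members past the threshold and Itgax, the 3 genes with the highest Pearson r are named, except 1 for Itgam that is not reported here. Of the other marker lists, 3 of 8 epithelium markers were higher in MHCII-high cells at 2 weeks and 2 at 4 weeks, and 0 lower. On average 3 were higher and 1, Scgb1a1, was lower. The list summed to 5555 to 14181 in MHCII-high against 4044 to 11776 in MHCII-low libraries at 2 weeks. At 4 weeks the sums were 7249 to 16877 against 20838 to 28299. Of 7 T and NK cell markers 1 was higher at 4 weeks. At either time 0 eosinophil, mast cell and basophil, platelet, fibroblast or endothelium markers passed between gates in limma. Of eosinophil, mast cell and basophil, platelet and fibroblast markers 0 were under an unadjusted p of 0.05, of endothelium 1 at each time, and edgeR and DESeq2 called 0 of these lists.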

Additional observations from a re-analysis of the deposited data

How the results depend on the processing

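No called member changed sign in any of the alternatives. Of 1540 recomputed member values 1472 kept their side of the threshold, 53 lost and 15 gained a call; 56 values changed sign, none of them past the threshold before or after. Itgam between gates was called throughout, at each time and on average. For the other genes called, 237 of 1214 recomputed values lost the call and none reversed. Of 154 recomputed counts of called members 118 stayed within 1.5 times.

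At 2 weeks between gates the count was 1 in place of 2 with library totals, no filter, edgeR, the mitochondrial RNA covariate or only the groups compared, and 1 to 2 without a library. DESeq2 also called Itgal there. At 4 weeks it was 2 in place of 1 with DESeq2 or the covariate, and 1 to 2 without a library. For the average the count was 2 in place of 4 with the covariate, Itgam and Itgb7. There Itgal (adjusted p = 0.17, limma), Itga4 (0.092) and Itgav (0.39) lost their calls. Without a library the count for the average was 2 to 4. For 2-week MHCII-low cells against controls it was 1 in place of 2 with the covariate, 0 with only the groups compared, and 1 to 2 without a library. From 2 to 4 weeks in MHCII-low cells it was 1 with library totals, 0 with only the groups compared, and 1 to 2 without a library, in place of 2. In MHCII-high cells it was 0 in place of 1 with library totals, no filter or only the groups compared, and 0 to 1 without a library. In some of these fits 1 control is left, assumed to vary like the other groups. The cause of these changes was not tested.

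Same-numbered MHCII-high and MHCII-low libraries deviated with r from 0.02 to 0.11 at 2 weeks and 0.01 to 0.03 at 4 weeks. With unlike numbers r was -0.12 to 0.08 at 2 weeks and -0.03 to 0.02 at 4 weeks. The same-numbered values were all positive but small, so pairing by number was neither shown nor excluded. Not every library correlated best with its own number (0.07 against 0.08 for 2-week MHCII-high replicate 2). With the replicate number as a block, members called at 4 weeks between gates went from 1 to 2 (Itga4, adjusted p = 0.047), Itgb2 passed at 2 weeks against controls (0.73, adjusted p = 0.023) and Itgb7 on average (adjusted p = 0.034); genes called at 4 weeks against controls went from 8 to 16.

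Over all genes, DESeq2 called 1055, 911, 2122, 665, 74, 320, 638 and 60 where limma called 499, 434, 1254, 332, 8, 149, 186 and 0, in the order of 2-week, 4-week and averaged gates, 2 and 4 weeks against controls, time in MHCII-low and MHCII-high cells, and the change between times. With no filter the counts were 316 and 282 between gates at 2 and 4 weeks, 65 at 4 weeks against controls and 103 over time in MHCII-high cells. EdgeR called 2 and 112 in the last 2 of these comparisons, a CPM minimum 13 at 4 weeks against controls, and library totals 93 and 99 over time in the low and high gate. The covariate gave 207 at 2 weeks between gates, 500 for the average, and 213 and 2 against controls. Only the groups compared gave 311, 56, 36, 0, 15 and 0 in that order without the average. Leaving out a library gave 203 to 455, 266 to 480, 853 to 1399, 127 to 308, 1 to 8, 95 to 138, 64 to 299 and 0 to 2. Of the genes called for the averaged gates 69.4% were higher, against 54.5% with TMM factors and 46.5% with library totals; the totals shifted the median of all genes by -0.15. A read is worth up to 2.24 normalized counts, which limits Itgb7, Itgb3 and Itgb8.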
